A study of Mus musculus with 3 samples.

Results

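The ADAM and ADAMTS metalloproteinases were described in RNA sequencing libraries of mouse microglia, the resident macrophages of the brain. Members were all genes whose symbol was Adam, Adamts or Adamtsl followed by a number, a rule that used no measured value. It found 57 of the 24411 tabulated genes, of which 33 were ADAM, 19 ADAMTS and 5 ADAMTS-like genes. The series held 1 group of 3 libraries, replicates 1 to 3, from brains of C57BL/6J mice labelled cKO and Pu.1 inhibitor. In the series design, cKO stands for Mir137 loxP/loxP mice that also carry Tmem119-CreERT2, a recombinase that tamoxifen activates in cells expressing the microglial gene Tmem119. The labels gave an age of 6 to 8 weeks, while the design placed 7 days of tamoxifen at 7 to 8 weeks of age. The inhibitor targets Pu.1, the macrophage transcription factor encoded by Spi1, whose transcript was at 187, 191 and 182 FPKM (fragments per kilobase of effective gene length, scaled to library size). A drug that acts on the protein need not change it, so this level does not check the treatment. The sources used here name neither the compound nor its dose, time or route. The design named 4 mice without assigning them to libraries, so the spread between libraries may be technical. Control microglia, whether uninhibited or with Mir137 intact, were not analysed here. All values are therefore levels under the combined condition, with no estimate of what the deletion or the inhibitor changed.

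ADAM proteins are membrane-anchored proteases made as inactive precursors, and many cut the outer part off other membrane proteins, a step called shedding. ADAM10 and ADAM17 are the best known of them and release growth factors, cytokines and receptors, while several other ADAMs have lost the catalytic residues and act in adhesion or in sperm. ADAMTS proteins are secreted relatives with thrombospondin repeats that cut proteoglycans, procollagens and other matrix proteins, and ADAMTS-like proteins keep those repeats but have no protease domain. In macrophages ADAM17 is known for releasing tumour necrosis factor, and ADAM10 and ADAM17 both cut the microglial receptor TREM2.

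The promoters of 5 members are shown first because their levels spanned the range of the family, from the highest member to a member with no count. Each window runs from 250 bases before to 50 bases after the annotated start, from RefSeq on GRCm38.p6, is written 5′ to 3′ on the strand of the gene, and has its CpG dinucleotides in capitals. The windows lie at chr9:70678732-70679031 (plus strand) for Adam10, chr12:21373583-21373882 (minus) for Adam17, chr16:85803064-85803363 (minus) for Adamts1, chr7:139992513-139992812 (minus) for Adam8 and chr8:40751958-40752257 (plus) for Adam25.
Adam10: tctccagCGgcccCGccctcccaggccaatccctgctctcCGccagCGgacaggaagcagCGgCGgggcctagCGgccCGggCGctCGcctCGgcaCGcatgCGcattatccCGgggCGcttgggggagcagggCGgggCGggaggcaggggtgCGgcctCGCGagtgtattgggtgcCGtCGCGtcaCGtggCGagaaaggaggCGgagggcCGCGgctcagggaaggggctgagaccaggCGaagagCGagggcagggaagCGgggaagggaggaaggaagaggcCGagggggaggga
Adam17: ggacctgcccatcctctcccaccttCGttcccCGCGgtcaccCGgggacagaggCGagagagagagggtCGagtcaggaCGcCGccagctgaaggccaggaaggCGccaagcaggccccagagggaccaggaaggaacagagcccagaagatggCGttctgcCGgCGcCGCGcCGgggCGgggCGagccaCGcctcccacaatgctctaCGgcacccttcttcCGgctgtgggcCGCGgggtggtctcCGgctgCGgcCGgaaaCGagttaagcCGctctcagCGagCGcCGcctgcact
Adamts1: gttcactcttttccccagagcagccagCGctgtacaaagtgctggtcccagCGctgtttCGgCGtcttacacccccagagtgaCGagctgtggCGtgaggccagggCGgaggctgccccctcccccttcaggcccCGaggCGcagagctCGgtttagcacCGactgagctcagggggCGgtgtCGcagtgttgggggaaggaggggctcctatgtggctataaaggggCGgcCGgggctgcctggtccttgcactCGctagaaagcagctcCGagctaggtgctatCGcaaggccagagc
Adam8: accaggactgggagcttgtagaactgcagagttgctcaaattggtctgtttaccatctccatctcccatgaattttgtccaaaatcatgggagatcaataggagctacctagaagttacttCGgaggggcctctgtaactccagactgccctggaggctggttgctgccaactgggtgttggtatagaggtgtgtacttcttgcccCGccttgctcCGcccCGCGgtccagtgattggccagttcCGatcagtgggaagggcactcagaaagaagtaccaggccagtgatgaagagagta
Adam25: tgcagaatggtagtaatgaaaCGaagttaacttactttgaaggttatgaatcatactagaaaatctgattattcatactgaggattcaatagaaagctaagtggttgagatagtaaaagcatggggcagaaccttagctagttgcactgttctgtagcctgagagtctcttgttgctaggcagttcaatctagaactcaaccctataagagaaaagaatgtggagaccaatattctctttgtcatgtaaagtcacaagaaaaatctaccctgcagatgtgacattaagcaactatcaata

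The libraries held 17180404, 15710750 and 16356125 estimated counts. For a gene with 0 counts, 3 counts is the upper limit, which is 0.175, 0.191 and 0.183 CPM (counts scaled to the library total) in replicates 1, 2 and 3. These limits cover counting error only. Mir137 had 0 counts, which checks nothing, since none of the 1174 tabulated microRNA loci had any count. All 8 microglial markers, P2ry12 and Tmem119 among them, reached at least 1 FPKM in every library, with a summed level of 12260 to 12815 FPKM. Markers of other cells were present too. All 8 neutrophil (13355 to 14754 FPKM), 8 endothelial (2036 to 2228), 6 choroid plexus (6257 to 7142), 6 border macrophage (248 to 264), 5 monocyte (575 to 658), 6 astrocyte (154 to 170) and 6 oligodendrocyte markers (209 to 260) reached that level, as did 6 of 8 mural and fibroblast markers (249 to 276). Neuronal and lymphocyte markers reached it in 2 of 8 each, with summed levels of 5.81 to 7.69 and 19.4 to 24.7 FPKM and Nefl at 0. In bulk RNA the share of a member's transcripts that came from each of these cells was not tested, and fewer cells of a type cannot be told apart from less RNA per cell.

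Most of the family was silent or nearly so, and a few members were abundant. A member was called detected at 1 FPKM or more in all 3 libraries, and 13 of 57 were (22.8%), against 47.8% of all tabulated genes. No count in any library was found for 15 members, and the other 29 had counts but stayed under the threshold in at least 1 library. The median of log2(FPKM + 1) over the 57 members was 0.27 ± 0.06 (mean ± SD, n = 3 libraries), against 0.95 ± 0.02 over all genes. The members together took 0.173 ± 0.0068% of the counts. Of their summed FPKM, Adam10, Adam15, Adamts1 and Adam17 made up 86.6 ± 0.09%, so the family level in these libraries was essentially that of 4 genes.

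**Figure D1:**
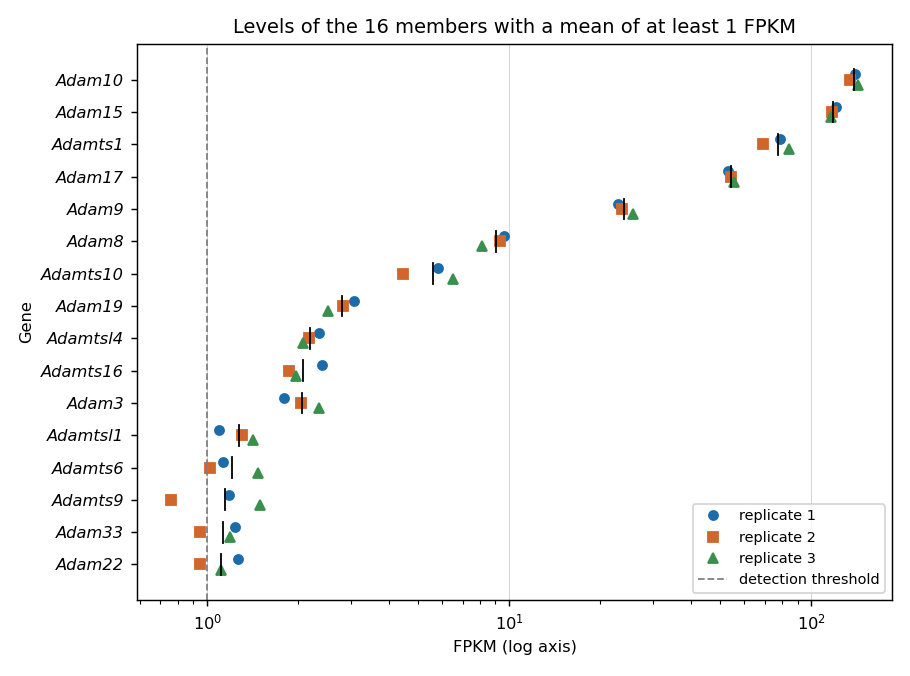
FPKM (log axis) of the 16 members with a mean of at least 1 FPKM, with 1 marker per library and a black line at the mean. The dashed line is the detection threshold of 1 FPKM, and Adamts9, Adam33 and Adam22 have replicate 2 below it.

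The role group labelled broadly expressed proteolytic ADAMs held the highest member of the family and had 6 of 9 detected. The label is loose, as Adam8, Adam12 and Adam28 are known from narrower sets of cells or tissues. Roles were assigned with earlier results of these data known. Adam10, which encodes the sheddase of Notch receptors and of the amyloid precursor protein (GRCm38 chromosome 9, 70678997 to 70780229), was at 139, 134 and 143 FPKM in replicates 1, 2 and 3, a mean of 139 ± 4.57 (SD, n = 3). The highest member in every library, it stood at rank 519 among all genes by mean FPKM. Adam15, a disintegrin metalloproteinase with roles in adhesion (chromosome 3, 89338542 to 89349996), followed at 120, 117 and 116 FPKM, a mean of 118 ± 2.21. Its highest value lay below the lowest value of Adam10, so the order of these 2 genes held in all libraries.

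Adam17, the converting enzyme of tumour necrosis factor (chromosome 12, 21323509 to 21373632), was at 53.1, 54.3 and 55.5 FPKM, a mean of 54.3 ± 1.23. Within a library Adam10 exceeded it by 2.62, 2.46 and 2.57 times in replicates 1, 2 and 3, a mean ratio of FPKM of 2.55 ± 0.083. An exon of Adam17 overlaps Iah1, whose own level was 13.1 ± 2.58 FPKM, and with no strand setting stated, their reads could not be told apart in the shared part. Adam9, a widely expressed sheddase (chromosome 8, 24949611 to 25016927), was at 23.0, 23.5 and 25.6 FPKM, with the ratio of Adam17 to Adam9 at 2.26 ± 0.082.

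Adam8, a protease of leukocytes and activated macrophages (chromosome 7, 139978932 to 139992562), was at 9.61, 9.3 and 8.13 FPKM. The 8 neutrophil markers given above were abundant beside it, and how much of Adam8 came from neutrophils was not tested. Adam19, a protease that can cut neuregulin (chromosome 11, 46055992 to 46147343), was lower at 3.06, 2.82 and 2.51 FPKM. Exons of both genes, and of Adam15, overlap genes that the tables do not list. The other members of this role group were below the threshold: Adam33 had 1.24, 0.95 and 1.19 FPKM, Adam28 0.07, 0.11 and 0.05, and Adam12 0.02, 0.03 and 0.14. Adam28, known from lymphocytes and the epididymis, had 3, 4 and 3 estimated counts, and Adam12, known from muscle and other mesenchymal tissue, had 3, 4 and 17.

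The neuronal ADAMs without protease activity, which bind LGI proteins at synapses, were all below the threshold (0 of 3 detected). Adam22 came closest with 1.26, 0.95 and 1.11 FPKM, while Adam11 had 0.37, 0.4 and 0.55 and Adam23 0.31, 0.35 and 0.3 FPKM. The estimated counts of Adam22 were 190, 106 and 160. Its count and FPKM imply an effective length of 8777, 7102 and 8813 nt in the 3 libraries, lowest in replicate 2, where its count was lowest as well. Of the 8 neuronal markers only Tubb3 and Map2 were detected in the same libraries.

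**Figure D2:**
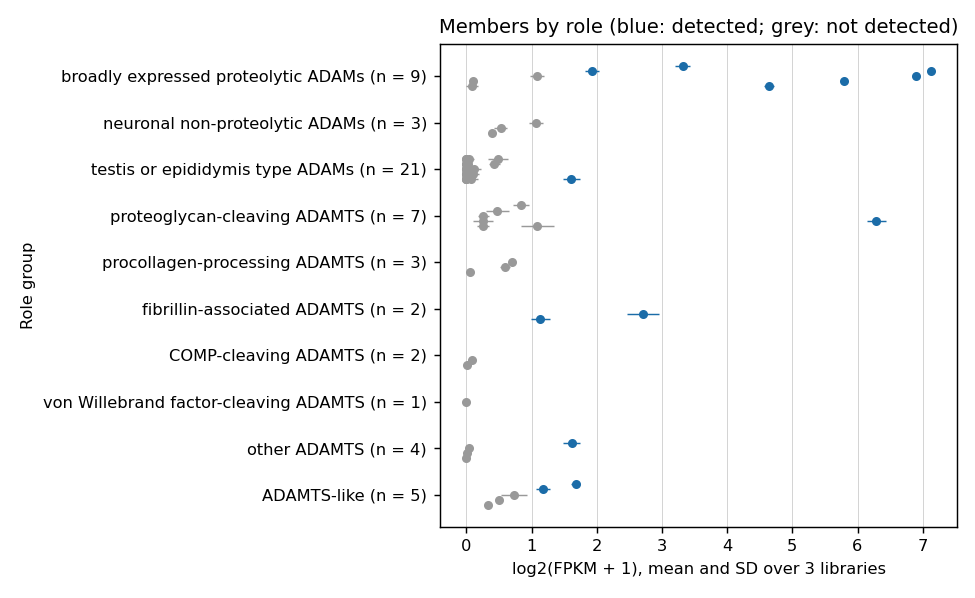
Level of each of the 57 members as log2(FPKM + 1), with points and bars for the mean and SD over 3 libraries, by role group. Detected members (blue) include 6 of 9 broadly expressed proteolytic ADAMs and 1 of 21 ADAMs of testis or epididymis type (Adam3).

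Members known from testis or epididymis, where they serve sperm maturation and the binding of sperm to the egg, were almost all silent. Of 21 such genes 13 had no count in any library: Adam1b, Adam2, Adam6a, Adam6b, Adam7, Adam20, Adam24, Adam25, Adam26a, Adam26b, Adam29, Adam34 and Adam39. Adam6a and Adam6b, and Adam26a and Adam26b, are close relatives in which reads could be split, but all 4 were at 0. Another 7 had counts without reaching the threshold, led by Adam1a at 0.37, 0.57 and 0.28 FPKM and Adam4 at 0.34, 0.44 and 0.27 FPKM. Exons of Adam1a overlap those of Mapkapk5, which was at 16.5 ± 1.46 FPKM, and their reads could not be told apart there. Adam18, Adam21 and Adam30 each had counts in 1 library only, which were 2, 4 and 5.

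Adam3, whose product sperm need to pass into the oviduct, was the exception among them. It was detected at 1.8, 2.05 and 2.34 FPKM, a mean of 2.06 ± 0.27 (SD, n = 3), on 75, 78 and 93 estimated counts. All 3 libraries held it at a like level, and its range lay above that of every other gene of its role group. On chromosome 8 it lies in a row of 5 members with no other protein-coding gene between them, in the order Adam18, Adam3, Adam5, Adam32 and Adam9. Its neighbours Adam18 (0, 2 and 0 counts), Adam5 (5, 5 and 0) and Adam32 (0, 4 and 3) were near 0, and Adam9 at the end of the row was at 24.0 ± 1.40 FPKM. Of 8 male germ cell markers 0 were detected, with a summed level of 1.06 to 1.17 FPKM and Prm1, Prm2, Tnp1 and Acrv1 at 0. An exon of Adam3 (24677225 to 24725852) overlaps Gm45528, a gene that the tables do not list, and reads of the 2 could not be told apart. Chromosome 8 held 14 of the 57 members, and Adam3 and Adam9 were the 2 that were detected.

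Among the proteoglycan-cleaving ADAMTS, which cut aggrecan and versican, 1 of 7 was detected. Adamts1 (chromosome 16, 85793827 to 85803113) was at 78.9, 69.2 and 84.1 FPKM, a mean of 77.4 ± 7.57, and was the third member in the family order. Replicate 2 was the lowest of the 3, but the range stayed clear of Adam15 above and Adam17 below. Its nearest protein-coding neighbour Adamts5, the other well-known aggrecanase, was at 0.25, 0.12 and 0.23 FPKM. Adamts9 had 1.18, 0.76 and 1.49 FPKM and thus missed the threshold through replicate 2. Adamts4 was at 0.72, 0.96 and 0.68 FPKM, and Adamts8, Adamts15 and Adamts20 had means of 0.2 to 0.4 FPKM.

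Both genes placed in the fibrillin-associated role group were detected, against 47.8% of all tabulated genes. Membership of so small a group is a matter of choice, and Adamts17, given below, was placed with the other ADAMTS. Its share detected is therefore not a result about the group. Adamts10 (chromosome 17, 33524204 to 33553782) was at 5.82, 4.44 and 6.52 FPKM and Adamts6 (chromosome 13, 104287835 to 104496695) at 1.13, 1.02 and 1.47 FPKM, both lowest in replicate 2. Adamts16, a less studied member (chromosome 13, 70727802 to 70841811), was at 2.39, 1.86 and 1.97 FPKM. The procollagen-processing genes had 0 of 3 detected, with Adamts14 at 0.58, 0.67 and 0.64, Adamts2 at 0.46, 0.6 and 0.46 and Adamts3 at 0.02, 0.03 and 0.06 FPKM. COMP-cleaving Adamts7 and Adamts12 were at most 0.09 FPKM, and an exon of Adamts7 overlaps Tbc1d2b. Adamts17 and Adamts18 were at most 0.07 FPKM. Adamts13, which cuts von Willebrand factor, and Adamts19 had no count in any library.

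ADAMTS-like genes, whose secreted products bind matrix microfibrils, had 2 of 5 detected. Adamtsl4 (chromosome 3, 95676201 to 95687917) was at 2.35, 2.17 and 2.07 FPKM and Adamtsl1 (chromosome 4, 85514172 to 86428385) at 1.09, 1.3 and 1.42 FPKM. Below the threshold were Adamtsl2 at 0.79, 0.8 and 0.41, Adamtsl3 at 0.41, 0.43 and 0.42 and Adamtsl5 at 0.28, 0.23 and 0.28 FPKM. Just inside the threshold of the whole family were Adamts6 and Adamtsl1, and just outside it were Adamts9, Adam33 and Adam22, whose means of 1.14, 1.13 and 1.11 FPKM were within the spread of those 2. In the order of the 13 detected members by mean FPKM, 9 of 12 neighbouring pairs had ranges over the 3 libraries that did not overlap. The exceptions were Adamtsl4 with Adamts16, Adamts16 with Adam3, and Adamtsl1 with Adamts6.

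The libraries were then compared with each other, to see which members spread beyond counting error. A chi-square test on each gene's 3 counts, with Benjamini-Hochberg adjustment over 13246 genes at 0.05, called 8 of the 28 members it could test (the others had too few counts), against 41.4% of all genes tested. A share below the background is not a result about the members, and the test compares libraries, not conditions. Called were Adam9, Adam10, Adam22, Adamts1, Adamts9, Adamts10, Adamts15 and Adamts20. Adam15 and Adam17 were not called, although each had at least 3554 counts in every library.

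Of the 8 called members 6 were lowest in replicate 2. Over all members tested this held for 8 of 16 ADAMTS and ADAMTS-like genes and 4 of 12 ADAM genes, against 35.4% of all genes tested. Scaled by TMM library sizes, Adamts1 had 363, 319 and 386 CPM, Adamts10 22.0, 16.8 and 24.6, Adamts9 6.81, 4.40 and 8.55 and Adamts15 1.98, 1.40 and 3.36 CPM in replicates 1, 2 and 3. Adam10, at 600.1, 577 and 614 CPM, and Adam22, at 11.1, 6.76 and 9.77 CPM, were lowest there too. Adam9, at 85.5, 87.8 and 95.2 CPM, was highest in replicate 3, and Adamts20, at 0.81, 1.85 and 0.92 CPM, was highest in replicate 2. Long genes in general were lower in replicate 2: when all genes were put in 10 equal bins of effective length, the median deviation of replicate 2 from the mean of the 3 libraries was -0.04 and -0.06 on the log2 scale in the 2 longest bins, against 0.10 in the shortest. The deviations of Adamts1, Adamts10, Adamts15 and Adamts9 in replicate 2 were -0.16, -0.30, -0.47 and -0.49. That of the ADAM gene Adam22 was -0.39. Adamts20, Adamts2, Adamts4 and Adamtsl2 went the other way, at 0.52, 0.28, 0.25 and 0.25.

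With library sizes scaled within these length bins, a setting chosen after seeing the data, 36.4% of genes and 6 of the 28 members were called, and Adam9 and Adam10 no longer were. Without replicate 2 the test called 2 members, Adam9 and Adamts1. Markers of mural cells and fibroblasts did not share this order as a set. Of these 8 markers 2 were lowest in replicate 2, Rgs5 (118, 102 and 133 FPKM) and Kcnj8 (2.47, 1.97 and 2.92). Another 4 were highest there (Vtn, Dcn, Lum and Col1a1). The summed level of the 8 markers, 253, 249 and 276 FPKM, was lowest in replicate 2 through Rgs5. Of 8 endothelial markers 0 were lowest in replicate 2, with 4 highest there and 4 highest in replicate 3. Of 6 choroid plexus markers 3 were lowest in replicate 2 (Kl, Kcne2 and Enpp2) and 3 in replicate 1, with 5 highest in replicate 3. The part of these cells and of gene length in the ADAMTS values was not tested, and 3 libraries of 1 group cannot tell them apart.

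**Figure D3:**
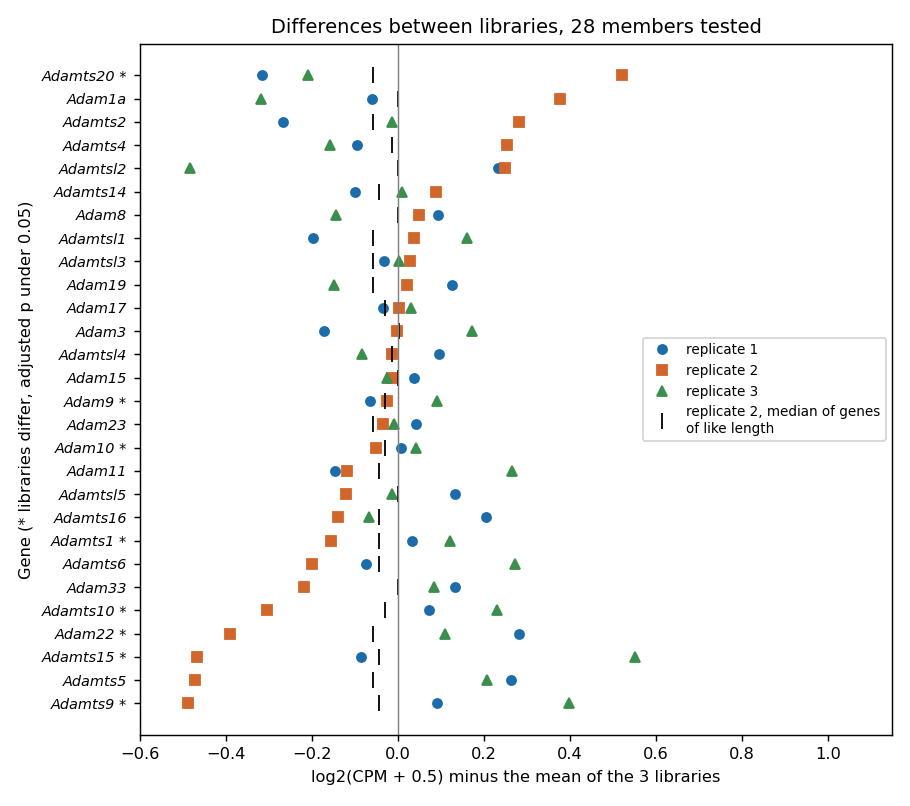
Deviation of each library from the mean of the 3 libraries, in log2(CPM + 0.5), for the 28 members tested, ordered by replicate 2. Stars mark the 8 members whose libraries differed, and black ticks give the median deviation of replicate 2 over all genes in the same bin of effective length. Adamts9, Adamts5, Adamts15, Adam22 and Adamts10 lie far to the left of their ticks in replicate 2, and Adamts20 lies far to the right. Adam10 and Adam9 lie near theirs.

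Genes that mature these proteases or inhibit metalloproteinases were examined next, from lists chosen with earlier results of these data known. The shares detected in these lists stand beside 47.8% over all tabulated genes and are not a result about these genes. TspanC8 tetraspanins, which carry ADAM10 out of the endoplasmic reticulum and steer its choice of substrate, had 5 of 6 detected. Tspan14 was at 158, 164 and 161 FPKM, 1.16 ± 0.054 times the level of Adam10 and 8.04 ± 0.31 times that of the next tetraspanin, Tspan5, at 20.1 ± 0.83 FPKM. Tspan33 was at 18.6 ± 1.95 FPKM and overlapped Tspan5 in range. Tspan17 and Tspan15 were at 2.94 ± 0.71 and 1.70 ± 0.30 FPKM, and Tspan10 had no count.

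The iRhoms, which ADAM17 needs to mature and reach the cell surface, were both detected at similar levels. Rhbdf1 was at 6.63, 7.24 and 7.79 FPKM and Rhbdf2, the form on which macrophages are known to depend, at 6.09, 7.92 and 6.69 FPKM, so their ranges overlapped. The ratio of Rhbdf2 to Adam17 was 0.127 ± 0.017. Frmd8, whose product stabilises the iRhom complex, was at 33.6, 33.95 and 31.5 FPKM. Of the proprotein convertases that remove the inhibitory prodomain, Furin (26.2 ± 1.26 FPKM) and Pcsk7 (10.9 ± 0.80) were detected, and Pcsk6 (0.53 ± 0.058) and Pcsk5 (0.38 ± 0.10) were not.

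Inhibitors of metalloproteinases had 5 of 6 detected. Timp2 was the highest of them at 139, 141 and 140.0 FPKM. Timp3, the tissue inhibitor that blocks ADAM17 and several ADAMTS proteases, was at 94.0, 89.5 and 109 FPKM. It was lowest in replicate 2, as were Reck, A2m and Timp4. Reck was at 18.5 ± 2.01, A2m at 5.56 ± 0.53 and Timp4 at 4.23 ± 0.91 FPKM. Timp1 had 0.77, 1.05 and 0.3 FPKM and was not detected. Timp2 exceeded Timp3 by 1.45 ± 0.15 times within a library.

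**Figure D4:**
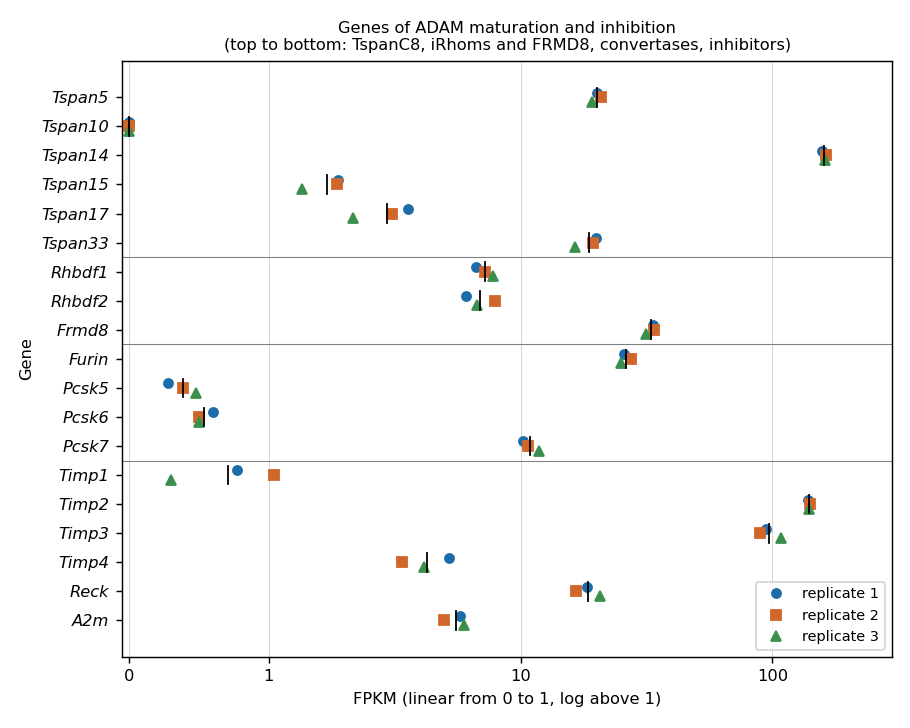
FPKM of TspanC8 tetraspanins, iRhoms and FRMD8, proprotein convertases and inhibitors (axis linear from 0 to 1 and logarithmic above), with 1 marker per library and a black line at the mean. Tspan14, Timp2 and Timp3 stand above the rest at 161, 140.0 and 97.4 FPKM.

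Surface proteins known to be shed by ADAM10 or ADAM17 had 20 of 21 detected, against 47.8% of all tabulated genes. Their median log2(FPKM + 1) was 5.71 ± 0.12. The list was chosen with earlier results of these data known, so its share detected is not a result about substrates. The highest were the receptor genes Csf1r (2370.2 ± 54.3 FPKM) and Trem2 (697 ± 54.7) and the amyloid precursor gene App (311 ± 5.27). Tnf was at 54.2, 58.4 and 56.7 FPKM, a range that overlapped that of Adam17, and its receptors Tnfrsf1a and Tnfrsf1b were at 97.2 ± 3.51 and 88.0 ± 3.42 FPKM. The growth factor gene Areg was lowest, at 0.25, 0 and 0 FPKM. Matrix substrates of ADAMTS proteases had 5 of 12 detected, with a median of 0.90 ± 0.14. Vwf, an endothelial product, was highest at 52.9 ± 2.54 FPKM, followed by Bcan at 6.79 ± 1.81 and Col1a2 at 3.18 ± 0.17 FPKM, and Acan, the namesake substrate of the aggrecanases, had no count.

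The promoters shown at the start were then read against these levels. RefSeq windows of 300 bases matched 31 of the 57 members, with 33 windows because Adam19 had 3. The 9 windows of the 7 detected members held a median of 18 CpG dinucleotides (range 5 to 32), and the 9 windows of members with no count held a median of 1 (range 0 to 2). In all tabulated genes the medians were 20 for detected genes and 3 for genes with no count, so the family followed the difference seen over all genes. Adam10 and Adam17 had 32 and 30 CpG and Adamts1 had 18, whereas Adam8 had 6 and Adam25 had 1. A CpG-rich window did not go with a high level in each case: the 15 windows of members with counts but below the threshold had a median of 25, and Adamts3, at 0.037 ± 0.021 FPKM, had 41. The sequence GAGGAAGT, a Pu.1-type ETS motif searched on both strands, was found in 1 of the 33 windows, that of the silent Adam29, and in 3.20% of all promoter windows of this length. It was in none of the 9 windows of detected members, which says only that these letters are not in those windows.

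**Figure D5:**
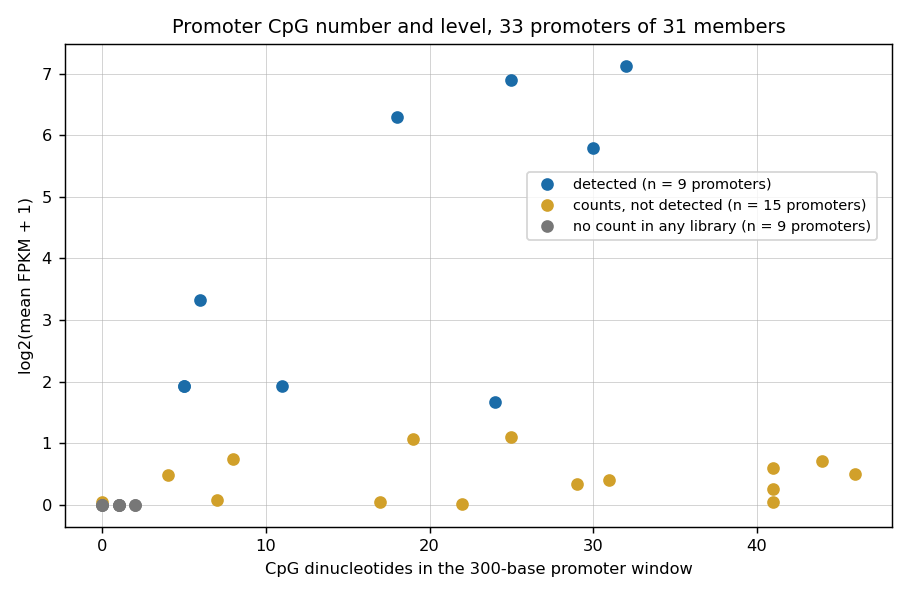
Number of CpG dinucleotides in each 300-base promoter window against log2(mean FPKM + 1) for 33 windows of 31 members. The 9 windows of members with no count (grey) hold 0 to 2 CpG, and the 9 windows of detected members (blue) hold 5 to 32.

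Since the genotype targets Mir137 in microglia, members were searched for sites that match the seed of its main product, bases 2 to 8, in capitals in the mature sequence from RefSeq (GRCm38.p6, chr3:118433901-118433923, plus strand). One 3′ UTR per gene was taken, the longest of the GENCODE M21 basic set. The match to bases 2 to 8, AGCAATA, was present in 2 of 57 members (3.51%), against 9.94% of 19500 tabulated genes with a 3′ UTR, whose median UTR was longer (991 against 702 nt). Of the 13 detected members only Adam15 held it, once, in a UTR of 271 nt (seed match at chr3:89339773-89339779, minus strand). Adamts13, with no count, held a match extended by the A opposite base 1 (chr2:26998560-26998567, plus strand). Below, the matched bases of each site are in capitals, written 5′ to 3′ as DNA on the strand of the gene. Adam10, Adam17, Adam9 and Adamts1 had no such match in UTRs of 2135, 1767, 1306 and 1574 nt. Without libraries that hold miR-137, whether the site in Adam15 acts could not be examined.
mmu-miR-137-3p: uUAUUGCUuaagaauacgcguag
Adam15 site: aggcgctgttaAGCAATAcctggggacgca
Adamts13 site: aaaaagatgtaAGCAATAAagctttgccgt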

How the data were processed

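Total RNA of 3 libraries was sequenced. The builds GRCm38 and mm10 and the tools DESeq2, RSEM and STAR 2.7.9a are named per the submitters' processing notes. Their settings, the annotation and the strand are not stated there. The authors deposited estimated counts per gene, not normalised between libraries, and FPKM, which divide them by library size and effective gene length. Of all deposited counts 4.07% of values were not whole, but 0 of the 57 members had such a value. The tables held 0 columns of other samples.

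The members, roles, lists and tests were chosen with earlier results of these data known. The rule for naming took detected members, the highest and silent members of each role, and the 3 highest and lowest genes of each further list. Beyond it, further partner genes, neighbours and overlapping genes were named after their values were seen. For the comparison of libraries, estimated counts were rounded, filtered with filterByExpr at its defaults (edgeR 4.0.16 under R 4.3.3), scaled by TMM and tested by chi-square. The test was checked on simulated counts that held counting error only, so the check does not cover other spread between libraries. Effective length is count over FPKM and library total. Positions are 1-based from GENCODE M21 (GRCm38), in which all 57 members matched. A search for the catalytic zinc motif, planned on protein sequences, was not run. Alternatives are given at the end.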

Additional observations from a re-analysis of the deposited data

How the results depend on the processing

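Detection of 13 members was 18 at a threshold of 0.5 FPKM, 16 by the mean, 6 at 5 FPKM, 24 at 1 CPM and 28 at 10 estimated counts, the last 2 taking no account of gene length. It was 6 among members whose gene body overlaps no other annotated gene, and 13 to 16 with 1 replicate left out. The median log2 level of 0.27 was -1.73 and -2.25 with pseudocounts of 0.1 and 0.01, 0.81 with TMM-scaled CPM and 1.82 over members with a mean of at least 1 FPKM, and 0.25 to 0.30 with 1 replicate left out. The share of counts of 0.173% was 0.0828% as a share of summed FPKM and 0.170 to 0.177% with 1 replicate left out. The ratio of Adam10 to Adam17 was 2.64 in CPM, which does not divide by length, and 2.52 to 2.60 with 1 replicate left out. Differences between libraries were called for 5485 genes and 8 members, for 5483 and 8 with DESeq2 size factors, for 6415 and 11 with no filter, and for 4819 and 6 with sizes scaled by length. With 1 replicate left out they were called for 2498 to 3780 genes and 2 to 6 members, fewest without replicate 2 for both, and fewer libraries also give the test less to compare. No paired analysis was possible because the series held 1 group. At this depth a member with 0 counts may be present below the limits given above.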

Other observations

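The matrix metalloproteinases, a related family of secreted and membrane proteases, had 9 of 23 detected (39.1%), against 22.8% of the ADAM and ADAMTS genes. Both shares were below the 47.8% of all tabulated genes, and their difference was not tested. The lower share includes the testis or epididymis type genes, which were almost all silent. Mmp8 was highest at 65.2 ± 1.39 FPKM (SD, n = 3), below Adam10 and above Adam17 in every library, with Mmp9 at 40.8 ± 2.53 and the membrane-bound Mmp14 at 14.0 ± 1.61 FPKM. Mmp8 and Mmp9 are stored in neutrophil granules, and Mmp8 stood among the 8 neutrophil markers detected in these libraries. Adamdec1, an ADAM-like protease without a number in its symbol, lies between Adam7 and Adam28 on chromosome 14 and was at 0.96, 0.72 and 1.69 FPKM, so it missed the threshold in 2 libraries.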
